A study of Mus musculus musculus x Mus musculus castaneus with 12 samples.

Results

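Peg3, Usp29 and Zim1 are the 3 genes of the Peg3 imprinted domain of proximal mouse chromosome 7 examined here, out of 24346 genes in the files. They were taken by gene symbol and were selected on their measured level and allele share in these samples, so those values are given below as a description, with no test. The 12 libraries are bulk RNA-seq of F1 hybrid mouse embryonic stem (ES) cells from crosses between C57BL/6J (BL6) and Mus castaneus (cast), grown on a layer of embryonic fibroblast feeder cells with leukemia inhibitory factor. In the BC cross the mother is BL6, so BL6 SNP fragments are maternal and cast SNP fragments are paternal. In the reciprocal CB cross the mother is cast and the assignment is the other way round.

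There were 2 wt libraries each of a male BC, a female BC and a male CB line. Knockout (KO) libraries came from 3 clones of the male BC line, named ΔE1, ΔE3 and ΔP4, and from 3 of the male CB line, named ΔE2.5, ΔE2.7 and ΔP2.1. They carry a CRISPR/Cas9 deletion in the X-linked histone H3K27 demethylase gene Kdm6a, either of exons 2 to 4 (ΔE) or of the promoter (ΔP). ΔE1 and ΔE3 derive from the same editing event, and both also lack Map3k15, Pdha1 and a portion of Sh3kbp1. The CB line carries an actin-GFP transgene, and each cross and each sex is represented by its own ES cell line, so cross, sex and cell line cannot be told apart. The guides that define the KO samples are shown here with the PAM in capitals, 5′ to 3′, because every comparison of KO with wt below rests on them.
ΔE Left: gaaacctcacgaacccgaaaAGG
ΔE Right: tagcattatctgcataccagAGG
ΔP Left: ggacactgcatgtttgatggAGG
ΔP Right: agctacatactccaaaggagAGG

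In mouse tissues Peg3 and Usp29 are expressed from the paternal chromosome and Zim1 mainly from the maternal one. Peg3 and Usp29 start close together on opposite strands at a CpG-rich imprinting control region that carries DNA methylation on the maternal allele. Peg3 encodes a large zinc finger protein best known for its part in growth, maternal behaviour and cell death signalling, Usp29 encodes a ubiquitin-specific protease, and Zim1 encodes another zinc finger protein. On GRCm38, Zim1 lies at chr7:6671269-6696450 on the minus strand, Peg3 at chr7:6703892-6730431 on the minus strand and Usp29 at chr7:6730578-6967219 on the plus strand. The start sites of Peg3 and Usp29 are 146 bp apart and Zim1 ends 7441 bp from Peg3. Zim3 overlaps 11535 bp of Usp29 on the opposite strand, and Peg3os is an antisense transcript of Peg3.

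Libraries held 49975599 to 89070402 assigned fragments, and the BL6-to-cast ratio of autosomal SNP fragments was 1.14 to 1.26 in the male libraries but 0.835 and 0.837 in the female ones. Kdm6a stood at 49.8 to 51.7 TPM in the 4 male wt libraries. The exon deletion clones had 2.07 to 13.5 TPM, and both ΔP clones were at 0.04 TPM. All 8 ES cell markers (among them Pou5f1, Nanog and Sox2) were above 1 TPM in every library. The 12 fibroblast markers summed to 39.7 to 42.7 TPM in male BC wt, 18.5 to 31.5 in male BC KO, 86.2 to 86.6 in female BC wt, 98.5 to 105 in male CB wt and 37.3 to 148 in male CB KO, with none at 0 throughout any group. Primitive endoderm markers summed to 16.9 to 54.7 TPM and trophoblast markers to 84.3 to 1741 TPM, both highest in male CB wt.

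Peg3 was by far the most abundant of the 3 transcripts, at 36.7 to 80.5 TPM (a level scaled for transcript length and library size) in all 12 libraries, whereas Usp29 and Zim1 stayed under 1 TPM in every one. The level of Peg3 in male BC wt was 79.3 and 61.5 TPM. After deletion in this line ΔE1 had 69.8 TPM, ΔE3 36.7 TPM and ΔP4 44.6 TPM. ΔE1 thus lay between the wt replicates, whereas ΔE3 and ΔP4 lay below both. The female BC wt replicates had 56.9 and 54.7 TPM, just below the lower male BC wt value. The CB wt replicates had 76.5 and 73.8 TPM of Peg3, within the range of male BC wt. In the CB line ΔE2.5 had 42.9 TPM, ΔE2.7 70.6 TPM and ΔP2.1 80.5 TPM, so that a single clone was far below wt and another was above it.

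**Figure D1:**
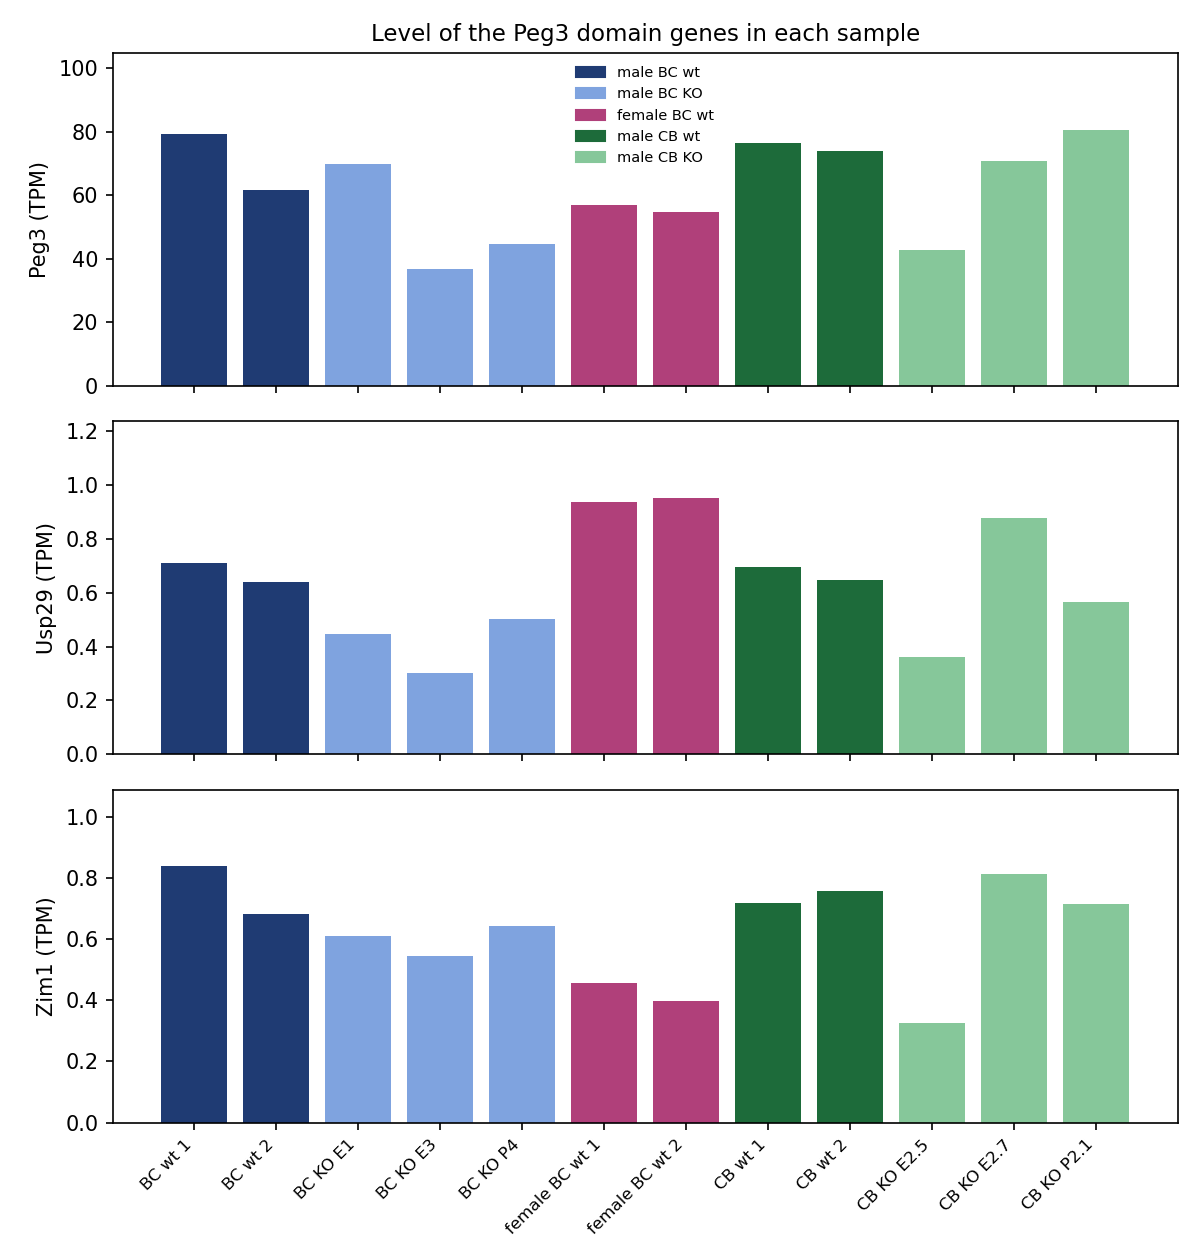
Bars give the level in TPM of Peg3 (top), Usp29 (middle) and Zim1 (bottom) in each of the 12 libraries, coloured by group, with each axis starting at 0. Peg3 lies between 36.7 and 80.5 TPM, with ΔE3, ΔP4 and ΔE2.5 lowest, while the other genes stay under 1 TPM.

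Ordered by group mean, Peg3 was at 75.2 ± 1.91 TPM in male CB wt (SD, n = 2), 70.4 ± 12.6 in male BC wt (n = 2), 64.7 ± 19.5 in male CB KO (n = 3), 55.8 ± 1.60 in female BC wt (n = 2) and 50.4 ± 17.3 in male BC KO (n = 3). The ranges of neighbours in this order overlapped in every case, so none of these steps exceeded the spread between libraries. The fitted log2 fold change of Peg3 in KO against wt was -0.52 (SE 0.27) in BC, lower than that of all but 4.72% of 13805 genes fitted. In CB it was -0.14 (SE 0.26), near the middle of the genes, with 31.3% of 13801 below it. In female against male BC wt it was -0.39 (SE 0.10) and in male CB wt against male BC wt 0.03 (SE 0.11).

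The parental alleles of Peg3 differed far more between groups than its level did. The maternal share is the percentage of SNP fragments that carry the maternal base, corrected for the BL6-to-cast ratio of the library, and the intervals are 95% Wilson intervals on the uncorrected share and cover counting error only. In male BC wt the maternal share of Peg3 was 11.5% (uncorrected 13.9%, interval 12.9 to 14.9%, 4431 SNP fragments) and 12.8% (uncorrected 15.4%, interval 14.3 to 16.6%, 3652 SNP fragments). In the male BC KO clones it was 2.74% in ΔE1 (133 of 4117 SNP fragments, interval 2.73 to 3.82%), 2.18% in ΔE3 (52 of 2023, interval 1.96 to 3.35%) and 3.56% in ΔP4 (111 of 2542, interval 3.64 to 5.23%). All 3 BC KO clones were below both wt replicates, as for 7.62% of 9933 autosomal genes. Their intervals were far from those of wt, in the exon deletion clones and in the independent promoter deletion clone alike.

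In the CB cross the maternal (cast) share of Peg3 was already low in wt, at 4.13% (95 of 2697 SNP fragments, interval 2.89 to 4.29%) and 3.10% (67 of 2543, interval 2.08 to 3.33%). It was 0.62% in ΔE2.5 (8 of 1585, interval 0.26 to 0.99%), 1.79% in ΔE2.7 (41 of 2606, interval 1.16 to 2.13%) and 3.50% in ΔP2.1 (86 of 2785, interval 2.51 to 3.80%). Both CB exon deletion clones were below the wt replicates, whereas the promoter deletion clone lay between them.

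In the female BC wt line both alleles of Peg3 were read. Its maternal share was 42.9% (1435 of 3716 SNP fragments, interval 37.1 to 40.2% uncorrected) and 42.6% (1000 of 2613, interval 36.4 to 40.1% uncorrected). The male BC wt replicates, from the same direction of cross, were far below, at 11.5% and 12.8%. For 53.3% of 9933 autosomal genes the maternal share of both female replicates was above that of both male BC wt replicates.

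**Figure D2:**
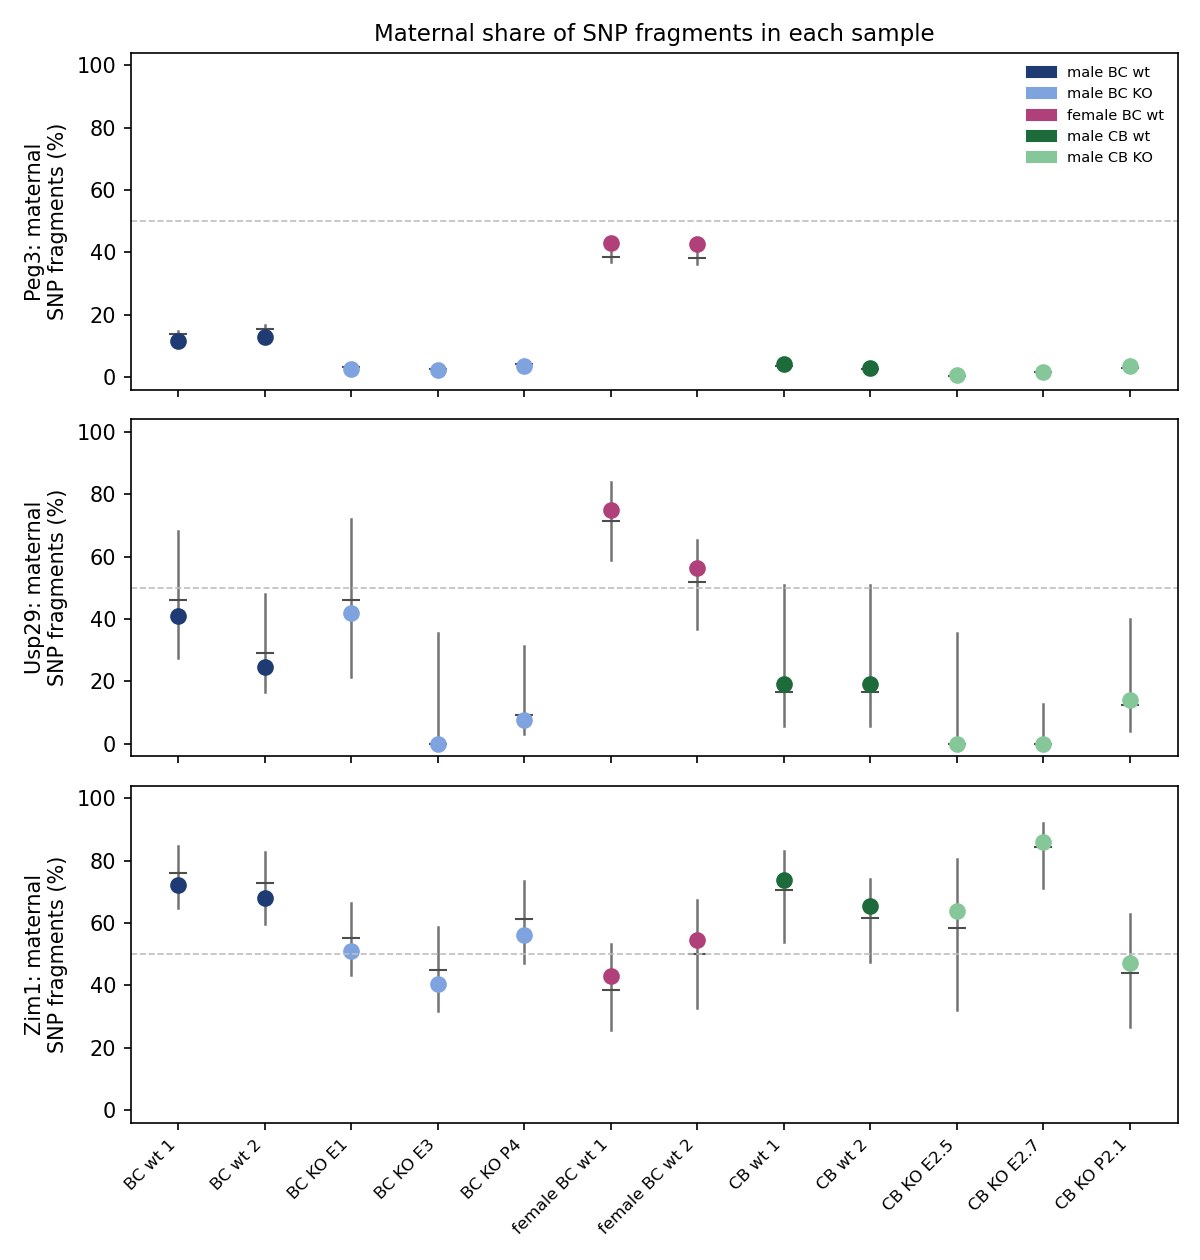
Dots give the corrected maternal share (percent of SNP fragments) of Peg3, Usp29 and Zim1 in each library, dashes the uncorrected share and lines its 95% Wilson interval; the dashed line marks equal shares. The intervals of Peg3 are narrow, whereas those of Usp29 and Zim1 are wide. Peg3 is near 43% in female BC wt and at 11.5 and 12.8% in male BC wt. It is at 4.13 and 3.10% in male CB wt and under 4% in all KO clones, with ΔP2.1 between the CB wt replicates.

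Multiplied by the TPM, the shares give the level of each allele. Maternal Peg3 was at 9.13 and 7.84 TPM in male BC wt, whereas ΔE1 had 1.91 TPM, ΔE3 0.80 TPM and ΔP4 1.59 TPM. Against the mean of the wt replicates, on library-scaled fragment counts (TMM), maternal Peg3 was at 22.3% in ΔE1, 9.34% in ΔE3 and 17.5% in ΔP4. Paternal Peg3 was at 70.2 and 53.7 TPM in male BC wt and ΔE1 had 67.9 TPM, ΔE3 35.9 TPM and ΔP4 43.0 TPM. On the same scale it was at 108% of wt in ΔE1, 57.6% in ΔE3 and 65.2% in ΔP4. The maternal reads of Peg3 were therefore lower in every BC KO clone, while the major paternal reads kept the wt level in ΔE1 and were lower in ΔE3 and ΔP4.

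In CB, maternal Peg3 was at 3.16 and 2.29 TPM in wt, and ΔE2.5 had 0.27 TPM, ΔE2.7 1.26 TPM and ΔP2.1 2.82 TPM. Paternal Peg3 was at 73.4 and 71.5 TPM in wt, and ΔE2.5 had 42.6 TPM, ΔE2.7 69.3 TPM and ΔP2.1 77.7 TPM. The low total in ΔE2.5 thus lay in both alleles, as it did in ΔE3.

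In female BC wt the maternal allele gave 24.4 and 23.3 TPM and the paternal allele 32.5 and 31.4 TPM. The paternal level was lower than in each of the 10 male libraries and the maternal level was higher than in any of them.

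**Figure D3:**
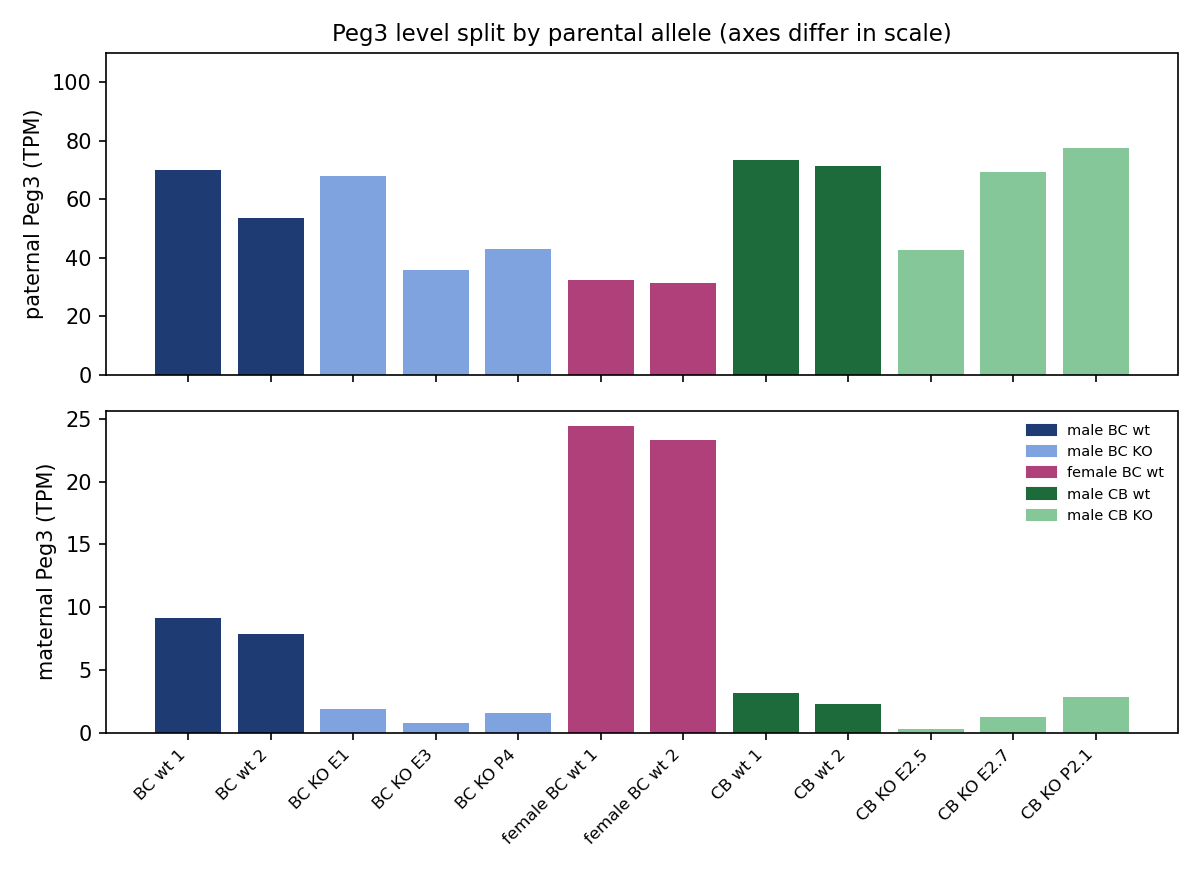
Bars give the Peg3 level in TPM read from the paternal allele (top) and the maternal allele (bottom) in each library, coloured by group; both axes start at 0 and differ in scale. Maternal Peg3 is 23.3 to 24.4 TPM in female BC wt, 7.84 to 9.13 TPM in male BC wt and at most 1.91 TPM in the BC KO clones.

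The maternal allele in BC and the paternal allele in CB are BL6, and the strain of the feeder cells is not given in the sources used here. The cultures were depleted of feeders by letting these attach to gelatin-coated dishes before the ES cells were moved on. Reads of feeder cells that carry BL6 bases would count as maternal in BC and as paternal in CB, and fewer such cells and less maternal RNA per ES cell cannot be told apart in bulk RNA. The summed fibroblast markers were lower in all 3 BC KO clones than in BC wt, with 6 of the 12 markers below both wt replicates in every clone and 0 above. Of the 13808 genes above 1 TPM in a library of that cross, 10.9% were below both wt replicates in every clone. Thy1 alone made up 20.6 and 19.6 TPM of the BC wt sums of 42.7 and 39.7 TPM, so the sum leans on 1 gene. DESeq2, which called 1.88% of all genes, called Thy1 lower in BC KO and no other of the 8 markers tested. Col1a1, the main collagen gene of fibroblasts, was at 9.23 and 7.45 TPM in BC wt and ΔE1 had 10.3 TPM, ΔE3 2.42 TPM and ΔP4 4.09 TPM. In ΔE1 Col1a1 was above both wt replicates while the marker sum, 31.5 TPM, was below them. Col1a2 was at 2.82 and 2.53 TPM in BC wt and 1.57, 1.48 and 0.88 TPM in ΔE1, ΔE3 and ΔP4. In female BC wt, with the highest maternal Peg3, Col1a1 was at 2.86 and 3.02 TPM and Col1a2 at 0.55 and 0.49 TPM, both below male BC wt. In the female line 7 of the 12 markers were below both male BC wt replicates and 5 above, and the sum was higher, with Thy1 at 67.4 and 66.3 TPM against 20.6 and 19.6 TPM. Of the SNP fragments of the 12 markers, 42.2 and 42.6% were BL6 in male BC wt and 39.3 to 59.7% in its KO clones. In CB wt the marker sum was 105 and 98.5 TPM. Both exon deletion clones were below this (ΔE2.5 37.3 TPM, ΔE2.7 52.9 TPM), whereas ΔP2.1 was above it (148 TPM). The maternal share of Peg3 was also below wt in ΔE2.5 and ΔE2.7, but between the wt replicates in ΔP2.1. Of the marker SNP fragments, 32.8 and 36.2% were BL6 in male CB wt and 29.0 to 37.9% in its KO clones. The part of feeder cells in the shares of either cross was not tested.

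Usp29 was read too rarely for a firm allele share. Its level was 0.71 and 0.64 TPM in male BC wt, with ΔE1 at 0.45 TPM, ΔE3 at 0.30 TPM and ΔP4 at 0.50 TPM, so that all 3 BC KO clones were below wt. TPM of all KO clones lay below both wt replicates for 10.9% of the 13808 genes above 1 TPM in a library of that cross. In CB it was 0.70 and 0.65 TPM in wt, and ΔE2.5 had 0.36 TPM, ΔE2.7 0.88 TPM and ΔP2.1 0.57 TPM, with clones on both sides of wt. Female BC wt had the highest Usp29, at 0.94 and 0.95 TPM.

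Because no library exceeded 1 TPM, Usp29 and Zim1 were not among the genes fitted in the main comparisons. Without a filter on low values, the fitted log2 fold change of Usp29 in KO against wt was -0.75 (SE 0.29) in BC and -0.08 (SE 0.39) in CB, and in female against male BC wt it was 0.43 (SE 0.13). On this scale Usp29 stood higher in the female line, whereas Peg3, which starts next to it, stood lower. Reads of Zim3, which overlaps Usp29 and had 247 and 167 fragments in female BC wt, make this Usp29 value uncertain.

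The SNP fragments of Usp29 numbered 7 to 46 in a library. The maternal share was 40.9% and 24.7% in male BC wt, 42.0% in ΔE1 (11 SNP fragments) and 7.52% in ΔP4 (19 SNP fragments). ΔE3 had 0 of 7 maternal SNP fragments, which allows a share of up to 42.9% (taken here as 3 counts of the total, not the Wilson bound). In CB wt it was 19.1% and 19.2% (11 SNP fragments each), ΔE2.7 had 0 of 26, which allows up to 11.5%, and ΔE2.5 had 0 of 7. Female BC wt had 75.1% (46 SNP fragments) and 56.2% (43 SNP fragments), the highest values of any library for Usp29 counted without Zim3. Their uncorrected intervals, 59.0 to 84.0% and 36.8 to 65.4%, overlapped that of the first male BC wt replicate, 27.3 to 68.3%. Differences in share between KO and wt were not detectable at this depth.

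The antisense partners limit what Usp29 and Peg3 can show, because the library kit does not keep the strand. The counts of Usp29 held fractions in 9 libraries, and in all 9 the sum with Zim3 was a whole number within 0.01. For Peg3 and Peg3os the sum was whole in all 11 libraries with fractions for BL6 SNP fragments and all 10 for cast SNP fragments, but in only 3 of 9 for the diploid counts. Summed, Peg3 and Peg3os had maternal shares of 11.5% and 12.4% in male BC wt, 2.73, 2.18 and 3.42% in ΔE1, ΔE3 and ΔP4 and 43.1% and 42.2% in female BC wt. The sum of Usp29 and Zim3 changed the Usp29 picture more, with maternal shares of 54.8% and 34.9% in male BC wt and 39.2% and 43.0% in male CB wt. In female BC wt the summed share was 52.7% and 54.5%, not above the 54.8% of the first male BC wt replicate.

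Zim3 itself was read mainly in the female line. It had 247 and 167 assigned fragments (2.25 and 1.96 TPM) in female BC wt and at most 15.3 fragments in any male library. edgeR gave a log2 fold change of 5.17 (SE 0.33, adjusted p = 1.45e-07) in female against male BC wt, where 44.5% of the 14049 genes tested passed, 19.9% lower and 24.5% higher. Its maternal share in the female was 37.3% and 52.5%, over 70 and 37 SNP fragments. Peg3os was lower in the female, at 1.33 and 0.45 TPM against 4.29 and 8.80 TPM in male BC wt (log2 fold change -2.88, SE 0.40, edgeR adjusted p = 5.71e-05). In KO against wt, Peg3os passed in neither cross (log2 fold change -0.39, SE 0.42, edgeR adjusted p = 0.772 in BC, and -0.26, SE 0.69, edgeR adjusted p = 0.853 in CB). Fragments that overlap both strands make the values of both antisense genes uncertain. Zim2, the last measured gene of the domain, had 0 to 6 fragments in a library and was not tested.

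Zim1, the maternally expressed gene, was at 0.84 and 0.68 TPM in male BC wt and at 0.61, 0.54 and 0.64 TPM in ΔE1, ΔE3 and ΔP4. In CB it was 0.72 and 0.76 TPM in wt and 0.33, 0.81 and 0.72 TPM in ΔE2.5, ΔE2.7 and ΔP2.1, and in female BC wt 0.46 and 0.40 TPM. The BC KO clones and the female replicates were thus below both male BC wt replicates. For the KO clones this held for 10.9% of 13808 genes above 1 TPM in a male BC library, a set without Zim1. For the female replicates the share of genes that do so was not computed. In CB only ΔE2.5 was far below wt. Without a filter on low values, the log2 fold change of Zim1 was -0.40 (SE 0.25) for KO in BC, -0.18 (SE 0.40) for KO in CB and -0.88 (SE 0.16) for female against male BC wt.

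The maternal share of Zim1 was 72.1% (51 of 67 SNP fragments, uncorrected interval 64.7 to 84.7%) and 68.2% (40 of 55, interval 59.8 to 82.7%) in male BC wt. It was 51.1% in ΔE1 (37 of 67, interval 43.4 to 66.5%), 40.5% in ΔE3 (22 of 49, interval 31.9 to 58.7%) and 56.1% in ΔP4 (30 of 49, interval 47.2 to 73.6%). All 3 BC KO clones had a lower share than both wt replicates, as 7.62% of all autosomal genes did, but only the interval of ΔE3 was clear of those of wt. In BC the maternal level of Zim1 was 0.60 and 0.47 TPM in wt and 0.31, 0.22 and 0.36 TPM in ΔE1, ΔE3 and ΔP4, while the paternal level was 0.23 and 0.22 TPM in wt and 0.30, 0.32 and 0.28 TPM in the clones. Maternal reads were thus lower in every BC KO clone for Peg3, where that allele is the minor one, and for Zim1, where it is the major one. Paternal Zim1 was higher in every clone, over 16 and 15 paternal SNP fragments in wt and 30, 27 and 19 in ΔE1, ΔE3 and ΔP4. The share of all genes that do so by allele level was not computed.

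In CB the maternal share of Zim1 was 73.9% and 65.6% in wt and 63.9% in ΔE2.5, 86.1% in ΔE2.7 and 47.2% in ΔP2.1, on both sides of wt and over 12 to 45 SNP fragments in the clones. In female BC wt it was 42.9% and 54.5%, below both male BC wt values, over 44 and 28 SNP fragments.

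To see whether the BC pattern was shared by the region, maternal shares were taken for the 23 other genes within 2 Mb of Peg3 that had at least 20 SNP fragments in every library. Their median share was 47.0% and 45.3% in male BC wt, 46.3% in ΔE1, 46.9% in ΔE3 and 43.4% in ΔP4. Between KO and wt in BC the median difference was 0.12 percentage points, against 0.48 for all 9933 autosomal genes. Peg3 had a difference of -9.31 points, lower than all but 3.93% of those genes. Of the 23 genes, Zfp787 and Zfp28 had all KO clones below both wt replicates (8.70% of them), where 7.62% of all autosomal genes did so, so the neighbourhood was near the background. Fiz1, Zfp444 and Zfp667 lay above wt in all clones, against 15.8% of all genes.

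In CB the median difference of the 23 genes was -0.35 points, that of Peg3 -1.65 points, and 28.2% of autosomal genes had a lower one. The mean share of Peg3 was 3.62% in CB wt, so it could not fall by more points than that. Its rank therefore cannot show how large the change was. On library-scaled counts (TMM), maternal Peg3 was at 10.2% of wt in ΔE2.5, 48.9% in ΔE2.7 and 108% in ΔP2.1. Zfp772 alone had all CB KO clones below both wt replicates, where 8.57% of all genes did so. In female BC wt the median share of the 23 genes was 56.6% and 53.6%. Of the 3 genes on the far side of Usp29, Zfp954 had 17.5% and 17.1% there, Zfp418 25.4% and 28.5% and Zfp772 58.5% and 61.0%, whereas Isoc2a and Zfp583, on the other side of Peg3, were between 71.8% and 82.4%. Ube2s was read almost wholly as cast in every library, with a maternal share of 0.65 to 2.38% in the 7 BC libraries and 98.4 to 98.9% in the 5 CB libraries. Zfp28 had a BL6 share over 50% in every library but ΔE3, with a maternal share of 48.5 to 78.3% in BC and as low as 11.7% in CB (ΔP2.1).

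**Figure D4:**
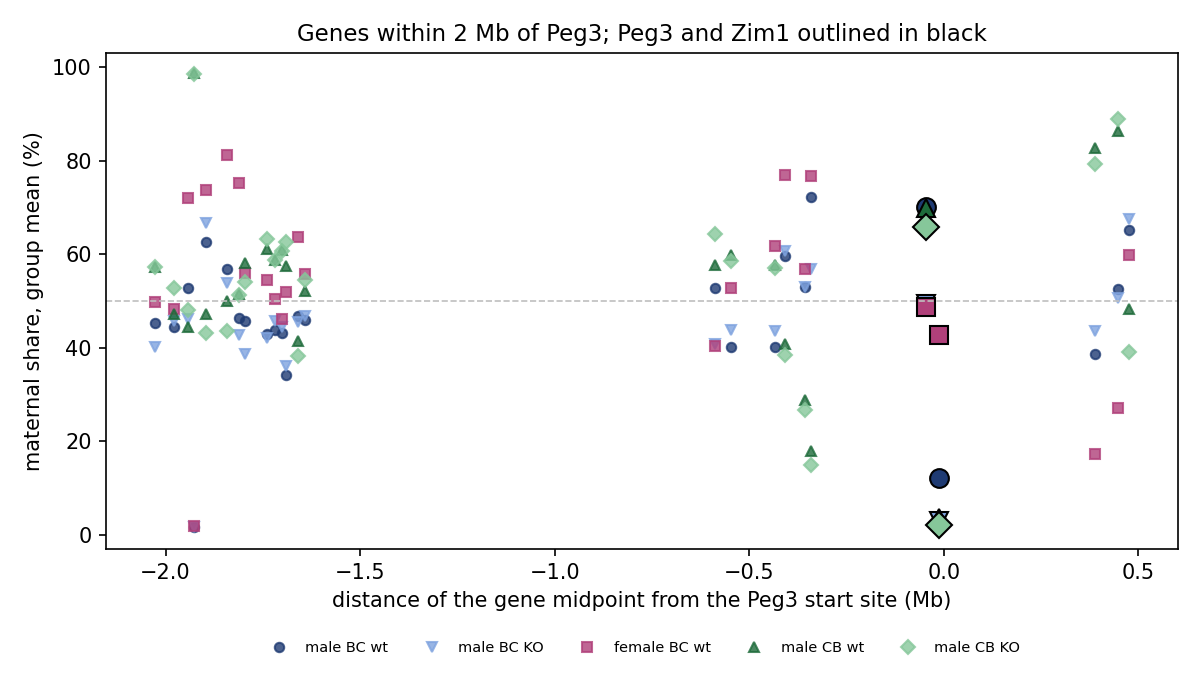
Each small symbol is the mean maternal share (percent) in a group of a gene within 2 Mb of Peg3, against the distance in Mb of its midpoint from the Peg3 start site; larger outlined symbols are Peg3 and Zim1. Most neighbours lie near 50% in every group, whereas Peg3 is at 12.1% in male BC wt, 42.8% in female BC wt and under 4% in the other groups.

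No neighbour passed the test of KO against wt by edgeR. Of 82 other genes in this window 31 were tested in BC and 32 in CB, and edgeR called 0 in either cross, where 0.029% and 0.0% of all genes passed. At an unadjusted p under 0.05 the whole comparison had 1525 genes in BC and 2832 in CB, and DESeq2, which called 1.88% of all genes in BC and 3.58% in CB, called 1 window gene in BC and 0 in CB. The median log2 fold change over the window was 0.07 in BC and 0.13 in CB. The median for genes of the first 20 Mb of chromosome 7 against wt lay between -0.07 and 0.07 on the log2(TPM + 1) scale in each of the 6 clones. In female against male BC wt, 20 of 35 window genes were called, 9 lower and 11 higher, where 44.5% of all genes passed.

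Peg3 was next set beside 20 other paternally expressed imprinted genes that had at least 20 SNP fragments in every library, of 30 in the list. In male BC wt their median maternal share was 35.3%, and 6 of them were under 10%, so that Peg3 at 12.1% was low but not lowest. Snrpn, Peg13 and Kcnq1ot1, which lie in other imprinted domains, were at 2.1%, 1.0% and 2.3%. A low maternal share in BC is also a low BL6 share. Impact, at 8.42% in male BC wt, was at 47.1% in male CB wt, whereas Peg3 was at 3.62% there. Maternal shares of all BC KO clones were below both wt replicates for 7 of the 20 genes (35.0%, against 7.62% of all autosomal genes). These were Peg10, Sgce, Impact, Plagl1, Dlk1, Zrsr1 and Kcnq1ot1. Peg10 and Sgce, neighbours in another imprinted domain, had means of 9.1% and 10.5% in wt and 2.0% and 3.0% in KO, close to those of Peg3. The share of Mkrn3 was above wt in all clones (37.6% in wt and 56.5% in KO).

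In CB, 2 of the 20 genes, Peg10 and Plagl1, had all KO clones below wt (10.0%, against 8.57% of all genes), which is near the background. Impact was above wt in every CB clone (9.23% of all genes were), with a mean of 47.1% in wt and 69.8% in KO. Of 19 maternally expressed genes, 3 (15.8%) were below wt in all BC clones, against 7.62% of all genes, and 2 (10.5%) above, against 15.8%. In CB 3 were below, against 8.57%, and 0 above, against 9.23%.

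In female BC wt the median maternal share of the 20 genes was 53.3% and none was under 10%. The share of both female replicates was above both male BC replicates for 16 of the 20 genes, against 53.3% of all 9933 autosomal genes. It was below both for 3 of the 20, against 32.4%. In this comparison the female line also has another BL6-to-cast ratio. The 5 genes with means under 10% in both male wt groups, Peg10, Snrpn, Snurf, Peg13 and Kcnq1ot1, were at 44.1 to 65.6% in the female. Peg3, at 42.8%, was just below this range.

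**Figure D5:**
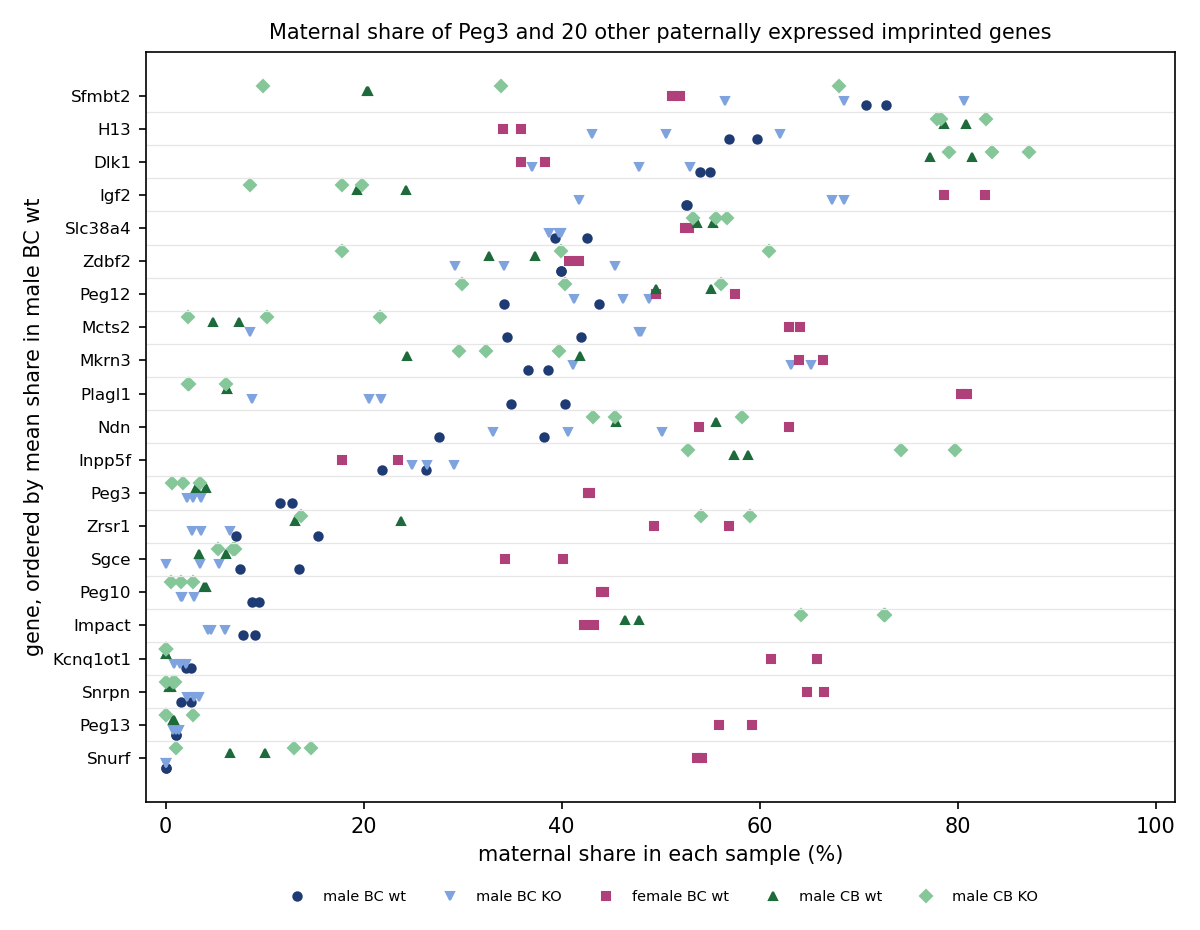
Each symbol is the maternal share (percent) in a library of Peg3 or of 20 other paternally expressed imprinted genes, ordered from bottom to top by the mean in male BC wt, with a symbol and colour for each group. Snrpn, Peg13 and Kcnq1ot1 are near 0% in all male libraries and at over 50% in the female line, and Peg3, Peg10 and Sgce have BC KO clones (light blue) to the left of wt (dark blue).

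In KO against wt, edgeR called 0 of the other paternally expressed imprinted genes by level in either cross. Of 24 paternally expressed genes tested in BC edgeR called 0 (DESeq2 0, and 1 at an unadjusted p under 0.05), with a median log2 fold change of -0.09 against 0.01 for all genes. The lowest were Nap1l5 (-1.18, SE 0.64) and Dlk1 (-0.79, SE 0.24) and the highest Peg12 (0.61, SE 0.35) and Igf2 (1.58, SE 1.07). Of 26 tested in CB edgeR called 0 (DESeq2 4, where it called 3.58% of all genes, and 8 at an unadjusted p under 0.05, where 2832 of 13801 genes were), with Sgce (-0.89, SE 0.16) and Peg10 (-0.63, SE 0.24) lowest and Rtl1 (1.11, SE 0.21) and Nap1l5 (1.15, SE 0.43) highest. Of 24 maternally expressed genes in BC, Meg3, Rian and Mirg, noncoding RNAs of the Dlk1-Meg3 domain, were called lower, where 0.0217% of all genes were. In CB none of 26 was called (5 at an unadjusted p under 0.05, and 2 by DESeq2), with Grb10 (-1.66, SE 0.85) and Dcn (-1.27, SE 0.54) lowest and Ddc (0.75, SE 0.12) and H19 (0.80, SE 0.61) highest.

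Between the wt lines many imprinted genes differed in level while Peg3 did not stand out. In male CB against male BC wt, where 34.5% of all genes passed (14.7% lower and 19.8% higher), 13 paternally expressed genes were called higher, namely Peg10, Sgce, Ndn, Peg12, Plagl1, Nnat, Igf2, Dlk1, Rtl1, Airn, Sfmbt2, Dio3 and H13, and Nap1l5 was called lower. Of the maternally expressed genes 11 were called higher, with Rian (3.40), Meg3 (3.20) and Mirg (3.08) the highest on the log2 scale, and Phlda2 and Ddc lower. In female against male BC wt, where 44.5% of all genes passed (19.9% lower and 24.5% higher), 10 of 25 paternally expressed genes were called higher, Rtl1 (2.31) and Dio3 (2.16) among them, and 5 lower, namely Magel2, Nnat, Igf2, Nap1l5 and H13. Of 24 maternally expressed genes 8 were called in each direction.

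A list of genes tied to imprint maintenance was read for the same samples. It holds genes that maintain imprints as well as de novo DNA methyltransferases and TET enzymes, so its counts mix different roles. Dnmt3a and Dnmt3b, the de novo DNA methyltransferases, had the lowest log2 fold changes of 21 such genes in BC KO (-1.03, SE 0.12, edgeR adjusted p = 0.117, and -0.98, SE 0.25, edgeR adjusted p = 0.339). Zfp42 (0.60, SE 0.14) and Zfp57 (0.50, SE 0.35) had the highest. None of these passed edgeR, and DESeq2, which called 1.88% of all genes, called Dnmt3a, Dnmt3b and Zfp42. Dnmt3a was at 159 and 142 TPM in male BC wt and at 83.5, 69.8 and 73.2 TPM in ΔE1, ΔE3 and ΔP4. All clones were thus below both wt replicates, as for 10.9% of 13808 genes above 1 TPM in a male BC library. Zfp57, which guards methylated imprinted alleles, was at 582 TPM in ΔE3 and at 258 to 273 TPM in the other male BC libraries. edgeR called 0 of the 21 genes in BC and 0 in CB (7 and 2 at an unadjusted p under 0.05), with medians of -0.14 and 0.06. In CB Tet3 (-0.32, SE 0.25) and Smchd1 (-0.21, SE 0.12) were lowest and Dnmt3l (0.42, SE 0.22) and Zfp42 (0.60, SE 0.28) highest.

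In female against male BC wt, 10 of these 21 genes were called, 4 higher and 6 lower, where 44.5% of all genes passed. Zfp57 (log2 fold change 1.17), Zfp42 (1.79), Tet2 (1.32) and Tet3 (0.80) were higher, and Dnmt3b (-1.80), Dnmt3a (-1.19), Ctcf (-0.94), Hells (-0.77), Setdb1 (-0.74) and Smchd1 (-0.62) were lower. In male CB wt against male BC wt, 5 were called, with Tet3 higher (0.66) and Tet1 (-0.91), Tet2 (-0.87), Dnmt3a (-0.61) and Zfp42 (-0.59) lower.

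Of the 8 genes whose proteins act with PEG3 or USP29, none was called in KO against wt in either cross (edgeR and DESeq2 0 in both, with 0 in BC and 3 in CB at an unadjusted p under 0.05). Trp53, which encodes p53, had a log2 fold change of -0.14 (SE 0.17) in BC and 0.36 (SE 0.07) in CB, and Siah1a, a ubiquitin ligase that binds PEG3, had -0.23 (SE 0.25) and -0.10 (SE 0.13). Bax, a cell death effector, had -0.14 (SE 0.19) and 0.22 (SE 0.09), and Ctnnb1, encoding beta-catenin, 0.05 (SE 0.10) and 0.03 (SE 0.07). Clspn and Chek1, which act in the replication checkpoint, had -0.28 (SE 0.13) and -0.08 (SE 0.14) in BC and 0.21 (SE 0.08) and 0.16 (SE 0.07) in CB. Siah1b and Traf2 had 0.00 (SE 0.17) and -0.14 (SE 0.13) in BC and 0.39 (SE 0.11) and -0.08 (SE 0.10) in CB. In the wt comparisons Trp53 (-0.94) and Clspn (-0.62) were called lower in the female line, and Siah1a (-0.69) and Chek1 (-0.75) lower in CB.

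Whether the KO effect differed between the crosses was fitted over the 10 male libraries. For Peg3 the difference in log2 fold change, CB minus BC, was 0.37 (SE 0.42), smaller in size than that of 39.8% of the 14298 genes. None of the 8 partners and none of the 21 genes of the imprint maintenance list was called in it, where 0.0629% of all genes were.

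Across the 12 libraries the level of Peg3, as log2(TPM + 1), correlated with that of Zim1 at Pearson's r = 0.69 and with that of Usp29 at r = 0.49, and Usp29 with Zim1 at r = 0.16. Libraries of a group share their cell line, so these are descriptions only. Among 13509 genes with a mean of at least 1 TPM, the most like Peg3 were Irak2, Szrd1, Hacd2, Ttll12 and Urm1, with r of 0.84 to 0.85. Irak2, an adaptor of interleukin-1 signalling, was at 8.20 and 7.56 TPM in male BC wt and 2.02 to 5.58 TPM in its KO clones, lowest in ΔE3. In CB it was at 11.9 and 12.3 TPM in wt and 4.99 to 9.31 TPM in the KO clones, lowest in ΔE2.5, so that unlike Peg3 it was below wt in every clone. Usp29 was most like Sh3bp1, Sema6c, Gramd1a, Nxph3 and Lpar1 (r of 0.89 to 0.91), and Zim1 most like Pld1, Ctsw, Abat, Pcdhga2 and Znfx1 (r of 0.80 to 0.86). Of these 15 genes only Gramd1a lies on chromosome 7.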

How the data were processed

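Polyadenylated RNA of 12 samples was sequenced by the authors as unstranded single-end libraries. Reads were aligned to the mm10 genome with TopHat for diploid expression and with bowtie (Bowtie2 2.2.5 in the submitters' processing notes) to BL6 and a pseudo-cast genome for alleles, keeping MAPQ of at least 30. The deposited values are estimated counts of fragments per gene (either genome, BL6 alone, pseudo-cast alone, and fragments with BL6 or cast SNPs), which can hold fractions where genes overlap. They were rounded for the tests.

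TPM was computed with GENCODE vM21 exon lengths (23310 of 24346 symbols matched, the others given the median length). The maternal share was n_ref / (n_ref + r n_alt) or its complement, with r the autosomal BL6-to-cast ratio. Genes other than Peg3, Usp29 and Zim1 that exceeded 1 TPM in a library were tested with edgeR 4.0.16 (quasi-likelihood, TMM, Benjamini-Hochberg) and called at an adjusted p under 0.05 and a fold of at least 1.5. DESeq2 1.42.0 was an alternative. Sh3kbp1, Map3k15 and Pdha1 were left out of comparisons with BC KO. Simulated data held 200 genes changed by 1.5 on the log2 scale, with a dispersion (spread between replicates) of 0.02 for every gene. There edgeR recovered 99.5% in the BC and 98.0% in the CB comparison. Recovery of smaller changes or at a wider spread was not tested, so these percentages do not apply to them.

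Of the other domain genes listed, Zfp264, Apeg3, Ast1, Mimt1 and Itup1 were not analysed here. The members, lists and tests were chosen with earlier results of these data known. Named were the 3 genes, all measured domain and partner genes, the called or else extreme members of the other lists (a selection where many were called), neighbours that carry a result, the most similar genes, Kdm6a and markers. The study calls the male wt samples both biological replicates and clones, and the female wt and KO samples clones. P-values measure the spread between these samples. Intervals cover counting error only, since reads carry no molecular identifiers.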

Additional observations from a re-analysis of the deposited data

Results flagged for a closer look

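For 4 genes of the imprinted lists the KO effect differed between the crosses by the test of the difference itself (edgeR, cross by KO interaction over the 10 male libraries). The difference in log2 fold change, CB minus BC, was 6.23 for Meg3, 6.18 for Rian and 6.30 for Mirg, with adjusted p of 0.000146, 2.4e-06 and 5.56e-06, and 3.46 for Rtl1, with adjusted p of 0.0437. All 4 belong to the Dlk1-Meg3 domain and none to the Peg3 domain.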

How the results depend on the processing

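The counts of genes called lower and higher in KO against wt were 3 and 1 in BC, 0 and 0 in CB, and 2 and 7 for the difference between crosses. DESeq2 gave 105 and 155 in BC, 333 and 161 in CB, and 356 and 199 for the difference. A fit over all 12 samples gave 31 and 23, 26 and 28, and 76 and 37. Without a filter on low values 5 were lower in BC and 6 in the difference, and with ΔE1 and ΔE3 averaged 5 were lower in BC and 12 lower and 11 higher in the difference. Leaving out each replicate in turn gave 1 to 4 lower and 0 to 0 higher in BC, 0 to 566 lower and 0 to 362 higher in CB, and 0 to 160 lower and 3 to 146 higher in the difference, with the highest counts of the last 4 without ΔP2.1. Without ΔP4 the difference gave 19 lower and 59 higher.

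The log2 fold change of Peg3 moved by less than 1 SD in 46 of its alternatives and by more in 2. Leaving out each replicate in turn gave -0.85 to -0.34 in BC, -0.32 to 0.09 in CB, 0.18 to 0.70 for the difference, -0.14 to 0.21 for CB against BC wt and -0.55 to -0.21 for female against male, and 0.21 and -0.21 in the last 2 came without male BC wt replicate 1. Without correction the maternal share of Peg3 was 14.6% in male BC wt and 38.4% in female BC wt, that of Usp29 16.7% in male CB wt and that of Zim1 74.4% in male BC wt. Pooling fragments gave 20.8% for Usp29 in male CB wt, and adding Zim3 (chosen after seeing the data) gave 44.9% in male BC wt, 41.1% in male CB wt and 14.6% in male CB KO. With each replicate left out, the share of Peg3 in male BC KO stayed between 2.46 and 3.15%. Of the 5 genes most like Peg3, 2 remained by Spearman correlation and 0 in the 10 male libraries alone.

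The wt lines share only replicate numbers. Deviations of same-numbered libraries correlated at 0.186, 0.0645 and -0.0022, and with the number as a replicate block 2067 genes were lower and 2758 higher in CB against BC wt (2037 and 2736 without) and 2816 and 3467 in female against male (2802 and 3445 without). The cause of these changes was not tested. Depth limits the shares: those of Usp29 rest on 7 to 46 SNP fragments and those of Zim1 on 12 to 67.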
